A study of Mus musculus with 6 samples.

Results

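The cells described here are a small set of CD8 T cells from draining lymph nodes (LN) that carried many transcripts of *Tnfrsf9*, *Nfkbid*, *Relb* and *Nfkb2*, 4 genes of the NF-κB pathway. They came from mice bearing B16-OVA, a melanoma line that expresses ovalbumin, and are called NF-κB activated cells below. An LN cell with 200 to 6000 genes, at most 3% mitochondrial transcripts and at least 1 unique molecular identifier (UMI, the tag of 1 captured RNA molecule) each of *Cd2*, *Cd8a* and *Cd8b1* was a member when the UMIs of the 4 genes summed to at least 4 and it held fewer than 3 UMIs of *Ccl5*, a chemokine of effector and memory cells. The rule gave 253 members among 13412 LN cells that passed the first filters, and 29156 cells of the whole series passed them. Control mice had the genotype CD8-Cre Rosa26Tomato, and CD8-IFNγRKO mice carried floxed *Ifngr1* alleles in addition, so that the Cre driven in CD8 T cells deletes part of the gene and the Tomato reporter of both genotypes marks cells with Cre activity. LN and tumors were taken 12 days after engraftment, and cells positive for CD45, CD3, CD8 and Tomato were sorted.

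Sorted cells of 3 mice were pooled before sequencing of 5′ transcript ends, which left 1 library for each genotype in each tissue, 4 in all, with nothing to trace a cell back to its animal. With 1 sample per genotype there was no test between genotypes, cells were not counted as replicates, and every interval below is an exact 95% interval that covers counting error only. The control LN library held 144 members among 6658 cells, 2.16% (Clopper-Pearson interval, 1.83 to 2.54), and the CD8-IFNγRKO library held 109 among 6754, 1.61% (1.33 to 1.94). The 2 intervals overlapped. Cells were also thinned to 1600 UMIs with the minimum lowered to 2, which dropped 237 control and 41 CD8-IFNγRKO cells of lower depth. Of the remaining 6421 and 6713 cells, 188 (2.93%, 2.53 to 3.37) and 137 (2.04%, 1.72 to 2.41) met this other rule, with intervals that did not overlap. Only 78 of the 188 and 43 of the 137 were members, so these shares are mostly of cells outside the set. Intervals over cells of 1 library per genotype do not compare genotypes, and the difference in share was not tested. Members were deeper than the other LN cells, with medians of 4972 and 4038.5 UMIs in the control library and 5024 and 3854 in the CD8-IFNγRKO library. Summed over cells, members held 883497 and 684050 UMIs and the other LN cells 29145772 and 28276217. Barcodes found in more than 1 library included 240 shared by the 2 LN libraries. Of the control members, 6 had such a barcode (4.17%, against 4.79% of the other LN cells), and of the CD8-IFNγRKO members 9 had one (8.26%, against 5.13%).

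NF-κB proteins are transcription factors that inhibitor proteins hold inactive until signals from the T cell receptor (TCR) or from receptors of the TNF family release them. The classical arm works through RelA, c-Rel and p50, and the alternative arm through RelB and p52, the latter made from the product of *Nfkb2*. Several of the genes that NF-κB switches on encode its own subunits and inhibitors, and in T cells the pathway accompanies activation, growth and survival.

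*Ifngr1*, the targeted gene, measured 126 CPM (counts scaled to a total of 1000000 UMIs of the pooled cells) in control members and 89.2 CPM in CD8-IFNγRKO members. The other LN cells of these libraries had 183 and 138 CPM. The log2 ratio of CD8-IFNγRKO over control was -0.49 (-0.97 to -0.03) in members and -0.41 (-0.47 to -0.35) in the other cells, a small deficit in both. Reads of 5′ ends can come from outside the deleted part, so these counts do not check the deletion. Throughout, log2 ratios were taken with 1 CPM added to both sides, and their intervals are those of the ratio without it.

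All members carried CD8 transcripts by the rule. *Cd3e* of the TCR complex had log2 ratios of -0.09 and -0.10 in members over other LN cells (control first, CD8-IFNγRKO second, here and below), *Cd3g* -0.11 and -0.06, and *Cd247* -0.56 and -0.37, and these genes were detected in 69 or more members of each library. B cell markers summed to 214 CPM in control members against 258 CPM in the other cells, and to 406 against 274 CPM in the CD8-IFNγRKO library. The most abundant B cell marker in members was *Ighm*, at 170 and 167 CPM, and 13 of the 18 genes of that list were at 0 in control members against 3 of 18 in CD8-IFNγRKO members. *Cd79a*, a defining B cell gene, had 0 UMIs in control members, while 13 UMIs in a single cell were found among CD8-IFNγRKO members. *Lyz2* of macrophages was likewise at 0 in the former and had 25 UMIs in a single cell in the latter. Summed macrophage markers were at 101 against 117 CPM and 127 against 108 CPM, dendritic cell markers, led by *Ccr7*, which naive T cells also express, at 688 against 807 and 770.4 against 862 CPM, and markers of CD4 and regulatory T cells at 135 against 114 and 193 against 99.8 CPM. Markers of NK cells stood at 34.0 against 36.4 CPM and 49.7 against 39.9 CPM. A UMI of the dendritic cell list was held by 139 and 106 members, so not all of these markers could be used to leave out cells. Leaving out cells with a UMI of part of them (below, cells that held markers of other cell types) kept 54 of 144 and 44 of 109 members. It kept a similar part of the other LN cells, 2549 of 6514 and 2546 of 6645. Of 40 genes that were at least 2-fold higher in members of both libraries (described below), 26 were then still past 2-fold in both. The others were the histone, replication and cell cycle genes *Hist1h1b*, *Hist1h2ae*, *Hist1h2ap*, *Mcm3*, *Pclaf*, *Rnaseh2b*, *Tfdp1* and *Top2a*, of which *Hist1h1b*, *Hist1h2ae*, *Hist1h2ap* and *Pclaf* were then lower in members of both libraries and *Mcm3* and *Top2a* in those of the control library, and *Gadd45b*, *Gramd1b*, *Icam1*, *Kdm2b*, *Pou2f2* and *Tank*.

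The promoters of the rule genes are shown because the letters of an NF-κB site could be looked for directly. RefSeq windows of 250 bases before to 50 after each transcript start (GRCm38.p6) were searched on both strands for the κB consensus, a 10-base pattern. Of 32851 windows, 1480 held a match (4.51%). Windows were at hand for *Tnfrsf9*, *Nfkbid* and *Nfkb2*, and each of these 3 genes had at least 1 match, in 5 of their 8 windows. Each sequence below runs 5′ to 3′ along the gene, with the match in capitals and 8 bases on either side. Matches that overlap one another, by a shift of 1 base, are shown once.
*Tnfrsf9*, chr4:150927948-150927973, plus strand: gagcagctGGGGATTTCCcaggaggc
*Nfkbid*, chr7:30422172-30422197, plus strand: cccgccctGGGACTTCCCagagcacc
*Nfkbid*, chr7:30422217-30422242, plus strand: gccgaacaGGAATTCCCCgtgcgcgg
*Nfkb2*, chr19:46304690-46304715, plus strand: atcgtcacGGGAATTCCCcccctcgg
*Nfkb2*, chr19:46304718-46304743, plus strand: ggccgaaaGGGGCTTTCCcggctgga
The match of *Tnfrsf9* began 43 bases before the start (position -43), those of *Nfkbid* at -226 and -181, and those of *Nfkb2* shown here at -39 and -11. A second start of *Nfkb2* had further matches at -236 and 11, not printed here.

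Among the 40 genes that were at least 2-fold higher in members of both libraries (described below), 29 had a window and 7 a match, 24.1%, where 6.35% of the 3464 compared genes with a window had one. The 7 were *Bcl3*, *Hivep1*, *Kdm2b*, *Nfkbia*, *Nr4a1*, *Slc29a1* and *Tank*. Of these, *Kdm2b*, *Nfkbia*, *Slc29a1* and *Tank* fell under 2-fold in at least 1 of 6 settings given below. The 40 genes were chosen on these same cells, and 27 of them entered the comparison only where members were high. The compared genes are thus not a like background, and the 2 shares were not tested against each other. The matches of the 2 genes among the 7 that encode IκB family proteins, and of *Hivep1*, whose product itself binds κB sites, read as follows.
*Nfkbia*, chr12:55492659-55492684, minus strand: actggcttGGAAATTCCCcgcgcctg
*Bcl3*, chr7:19822736-19822761, minus strand: ggcggcagGGGAAGTCCCgctgcccg
*Hivep1*, chr13:42051983-42052008, plus strand: ccgcccccGGGGATCCCCtgctgccc
The matches began at -29, 3 and -30 of the transcript start. A match of letters is a description of the window and not a binding site that was measured.

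The 4 rule genes chose the cells, and their levels are given as a description only. *Tnfrsf9*, which encodes the costimulatory receptor 4-1BB, measured 112 CPM in control members against 4.67 CPM in the other cells, and 134 against 4.17 CPM in the CD8-IFNγRKO library. *Nfkbid*, a nuclear IκB protein, was at 278 against 24.6 CPM and 175 against 22.5 CPM. *Relb*, the subunit of the alternative arm, had 312 against 41.1 CPM and 288 against 40.6 CPM. *Nfkb2* had 217 against 32.4 CPM and 203 against 29.1 CPM. *Relb* and *Nfkb2* were found in most members, 126 and 105 of the 144 in the control library, while *Tnfrsf9* was found in 43 of them and in 29 of the 109 CD8-IFNγRKO members. The sum stood at exactly 4 in 74 control members (51.4%) and in 55 CD8-IFNγRKO members (50.5%), and its maximum was 21 and 13. Just outside the rule, 169 and 129 cells had a sum of 3. Cells at 4 and at 3 differed in *Tnfrsf9* from 44.2 to 29.0 CPM in the control library and from 59.1 to 28.6 CPM in the CD8-IFNγRKO library, and in *Nfkbid* from 108 to 98.9 CPM and from 109.8 to 108 CPM.

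**Figure D1:**
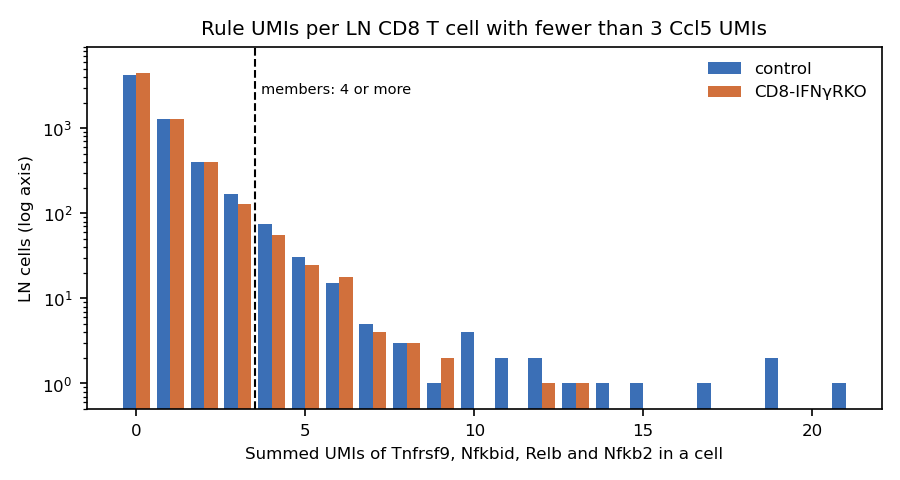
Number of LN cells (log axis) by the summed UMIs of *Tnfrsf9*, *Nfkbid*, *Relb* and *Nfkb2* in the cell, for LN cells with fewer than 3 UMIs of *Ccl5*, by genotype. The number of cells falls without a gap through the minimum of 4 (dashed line), from 169 and 129 cells at 3 UMIs to 74 and 55 at 4.

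To see each rule gene in cells that it had not chosen, cells were picked by the other 3 genes alone. *Tnfrsf9* was then at 59.0 CPM in 121 chosen control cells against 6.61 CPM in the rest, a log2 ratio of 2.98 (2.63 to 3.65). In the CD8-IFNγRKO library its ratio in 86 chosen cells was 1.03 with an interval (-0.10 to 2.13) that included 0. *Relb* had ratios of 1.75 (1.34 to 2.17) in 52 cells and 1.32 (0.81 to 1.82) in 42, and *Nfkb2* of 1.32 (0.89 to 1.77) in 73 and 1.78 (1.31 to 2.28) in 54. *Nfkbid* had 0.38 (-0.24 to 0.96) in 93 control cells and 1.07 (0.46 to 1.67) in 72 CD8-IFNγRKO cells. The cells so chosen were not matched to the rest for depth, and these values are a description only.

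Outside the rule genes, 4261 genes were compared, those with at least 30 CPM in members or in other cells of both libraries and at least 20 UMIs. Of these, 40 (0.939%) were at least 2-fold higher in members of both libraries and 3 (0.0704%) at least 2-fold lower. In 27 of the 40, the other cells were below 30 CPM in a library, so that those genes could enter the comparison only where members were high. When the other cells were weighted to the depth of the members, 31 of the 40 were still past 2-fold. The 9 that were not were *Hist1h1b*, *Hist1h2ae*, *Hist1h2ap*, *Mcm3*, *Rnaseh2b*, *Slc29a1*, *Tfdp1*, *Top2a* and *Ybx3*. In 6 settings that left out or reweighted cells (depth, other cell types' markers, each gene's top cell, equal weight per cell, cycling cells, shared barcodes), 11 of the 40 stayed past 2-fold and within the filter each time, namely *Bcl2a1b*, *Bcl3*, *Cd82*, *Hivep1*, *Hivep3*, *Id3*, *Kdm6b*, *Nr4a1*, *Nr4a3*, *Rilpl2* and *Xcl1*. *Bhlhe40*, *Cd83*, *Cdca7*, *Fabp5*, *Kpna2*, *Lta* and *Shmt1* stayed past 2-fold each time but fell below the filter on levels in at least 1 setting, and the others fell under 2-fold in at least 1. The 6 settings did not change the minimum of the rule. Of the 11, *Rilpl2* had 0.99 and 0.86 at a minimum of 3 rule UMIs, and *Id3* 1.01 and 0.99 at a minimum of 6. The median log2 ratio over all genes compared was 0.06 and 0.03. By any amount, 56.3% of the genes were higher in members of the control library and 52.4% in the CD8-IFNγRKO library, and 41.1% of the genes were higher in both and 32.4% lower in both.

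**Figure D2:**
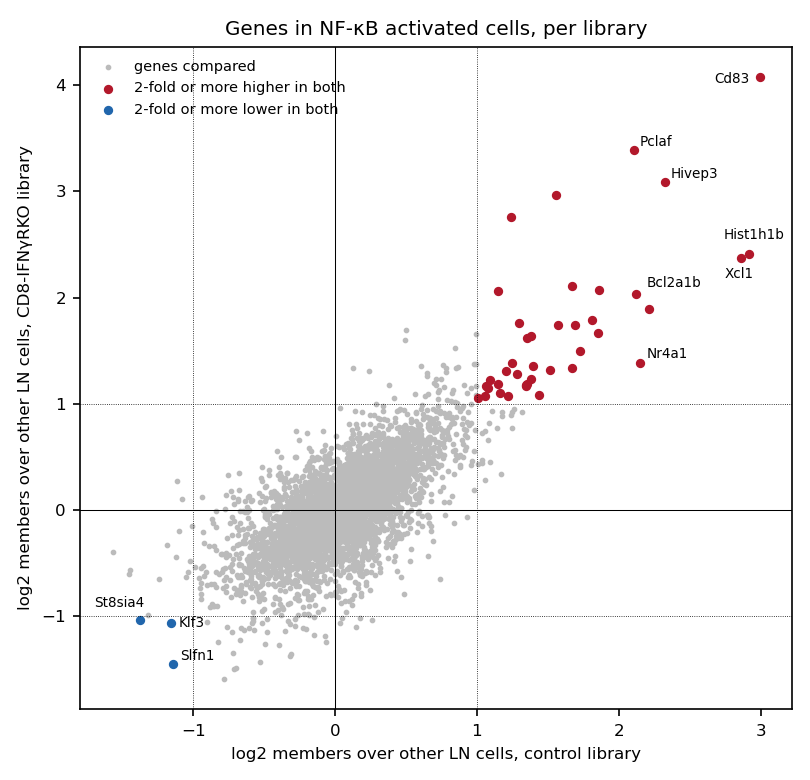
Log2 ratio of pooled CPM, members over other LN cells, of each of 4261 genes in the control library (x axis) and the CD8-IFNγRKO library (y axis), 1 CPM added. Dotted lines mark 2-fold, the 40 genes past it upwards in both libraries are red and the 3 downwards are blue, with *Cd83* at the upper end of both axes.

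Among NF-κB subunits and regulators outside the rule, 20 of 24 listed genes could be compared. Of these, 14 were higher in members of both libraries and 3 lower, 3 were at least 2-fold higher, and the medians were 0.50 and 0.43. *Nfkbia*, whose product IκBα retains NF-κB in the cytoplasm, had 716 CPM (662 to 775) in control members against 342 CPM in the other cells, and 596 CPM (540.0 to 657) against 266 CPM in the CD8-IFNγRKO library. *Nfkb1*, the source of p50, was at 243 against 116 CPM and 241 against 115 CPM. *Bcl3*, which encodes a nuclear partner of p50 and p52, was at 73.6 against 28.2 CPM and 45.3 against 14.1 CPM. The log2 ratios of these 3 genes of the pathway were 1.07 and 1.16, 1.06 and 1.07, and 1.35 and 1.62. The first 2 lay close to 2-fold, and without its top cell *Nfkbia* had 0.99 and 1.09 and *Nfkb1* 1.02 and 0.95. At a minimum of 3 rule UMIs the values were 0.98 and 1.05, and 0.87 and 0.91, at a minimum of 6 *Nfkbia* had 0.97 and 1.71, and centred on the median of all genes *Nfkb1* had 0.9995 and 1.04. In 4 of the 20 genes (*Bcl3*, *Nfkbie*, *Nfkbiz* and *Traf3*) the other cells were below 30 CPM in a library. These passed the filter only because members were high, and the count and medians of the list are in part set by it.

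Further subunits and inhibitors were higher too, though not past 2-fold in both libraries. *Rel*, encoding c-Rel, had log2 ratios of 0.90 and 0.96, *Nfkbie* of the IκB family 0.98 and 1.37, and *Nfkbib* 0.86 and 1.01. Of these 3, *Nfkbie* passed the filter only because members were high. *Rela*, encoding the main activating subunit of the classical arm, had 0.32 (-0.00 to 0.62) and 0.19 (-0.19 to 0.56), intervals that included 0. The feedback gene *Tnfaip3*, encoding the deubiquitinase A20, was at 457 against 344 CPM in the control library and 376 against 347 CPM in the CD8-IFNγRKO library, a log2 ratio of 0.41 and 0.11. The upstream kinase gene *Ikbkb* was close to the other cells, with -0.09 and -0.17.

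Of 24 listed NF-κB target genes, 12 could be compared, 8 of which were higher and 2 lower in both libraries, with 5 past 2-fold and medians of 0.57 and 0.51. In 4 of those 5 (*Cd83*, *Bcl2a1b*, *Gadd45b* and *Lta*) the other cells were below 30 CPM in a library, so that the filter let them in only because members were high, and the count and medians are in part set by it. *Cd83*, a surface protein of activated lymphocytes and dendritic cells, measured 35.1 CPM (23.8 to 49.8) in control members against 3.53 CPM in the other cells, and 51.2 CPM (35.6 to 71.2) against 2.09 CPM in the CD8-IFNγRKO library. These levels came from 21 and 17 member cells, and 10 of the 35 *Cd83* UMIs of CD8-IFNγRKO members lay in cells with a barcode found in another library. The log2 ratios of 2.99 and 4.08 became 2.82 and 3.23 against other cells of the members' depth, and 2.14 and 4.04 without cells that held markers of other cell types, where *Cd83* no longer reached 30 CPM in both libraries.

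*Bcl2a1b*, a survival gene of the BCL2 family with near-identical copies in the genome, so that its count is uncertain, measured 114 against 25.5 CPM and 89.2 against 21.0 CPM, with 16 of 61 UMIs of CD8-IFNγRKO members in cells with a barcode found in another library. *Icam1*, an adhesion molecule, had 136 against 51.6 CPM and 104 against 43.5 CPM, in 60 and 38 member cells. *Lta*, encoding the TNF family cytokine lymphotoxin α, had 39.6 against 12.7 CPM and 39.5 against 11.1 CPM. Each of the 3 genes was more than 2-fold higher in both libraries, by log2 ratios of 2.12 and 2.04, 1.38 and 1.24, and 1.57 and 1.74. Without cells that held markers of other cell types, *Bcl2a1b* had 2.44 and 1.999, *Icam1* 1.38 and 0.94, under 2-fold in the CD8-IFNγRKO library, and *Lta* 1.26 and 2.33 at a level below the filter of 30 CPM. Known targets with small ratios were *Ltb* (0.36 and 0.28), *Sod2* (0.44 and 0.28) and *Traf1* (0.42 and 0.52).

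*Hivep3* and *Hivep1*, zinc finger proteins that bind κB-like sites, were among the 20 highest genes. *Hivep3* was at 52.1 against 9.61 CPM and 84.8 against 9.09 CPM, with UMIs in 25 members of each library. *Hivep1* was at 48.7 against 14.4 CPM and 57.0 against 16.3 CPM. Both chromatin genes *Kdm2b* (log2 ratios of 1.40 and 1.35) and *Kdm6b* (1.28 and 1.28), which encode histone demethylases, were also past 2-fold, although without cells that held markers of other cell types *Kdm2b* had 1.503 and 0.74.

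Genes induced early after TCR contact were split. Of 28 listed, 21 could be compared, 11 were higher and 6 lower in both libraries, 3 were at least 2-fold higher, and the medians were 0.30 and 0.06. Of the 3, *Nr4a3* and *Bhlhe40* passed the filter only because members were high. *Nr4a1*, encoding the nuclear receptor Nur77, was at 207 CPM in control members against 45.9 CPM, and at 133 against 50.3 CPM in the CD8-IFNγRKO library. *Nr4a3* had log2 ratios of 1.73 and 1.498, and the transcription factor *Bhlhe40* 2.21 and 1.89. *Egr1* (0.85 and 0.71) was higher by less, and *Egr2* and *Irf4* were found in only 14 and 14 control members and 6 and 8 CD8-IFNγRKO members.

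The AP-1 genes lay on the other side. *Fos* was at 653 CPM in control members against 1054 CPM in other cells and at 572 against 987 CPM in the CD8-IFNγRKO library. *Jun* was at 523 against 893 CPM and 504 against 834 CPM, and *Junb* had log2 ratios of -0.39 and -0.37. These genes are also known to be induced by tissue handling, and whether handling had a part in these ratios was not tested. The list of heat shock and handling genes had 5 genes higher and 6 lower of 12 compared. *Cd69*, an early surface marker of activation, differed little (0.36 and 0.11).

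*Xcl1*, a chemokine that attracts cross-presenting dendritic cells, had 141 against 18.6 CPM and 83.3 against 15.2 CPM. Its level rested on few cells, 9 control members and 17 CD8-IFNγRKO members, with 46 of 125 UMIs and 12 of 57 UMIs in a single cell, and 27 of the 57 lay in the 9 members with a barcode found in another library. Against other cells of the members' depth its log2 ratios of 2.86 and 2.38 became 2.45 and 1.45. Against other cells with fewer than 3 UMIs of *Ccl5* they became 4.13 and 3.07. Of the 26 listed cytokines, chemokines and cytotoxic products, 6 could be compared, and *Lta* and *Xcl1* were the 2 past 2-fold, both of which passed the filter only because members were high. No receptor of the TNF receptor and costimulation list outside the rule was past 2-fold among 7 compared, with 3 higher and 3 lower. Of the 7, *Fas* passed the filter only because members were high.

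Growth genes made up the most uniform list. Of 33 genes of Myc, ribosome biogenesis and growth, 30 could be compared and 29 were higher in members of both libraries, none lower, with medians of 0.63 and 0.77. The exception, *Max*, had 0.23 and -0.17. In 2 of the 30 (*Bop1* and *Cad*) the other cells were below 30 CPM in a library, so that they entered only because members were high. *Myc* itself was at 377 against 202 CPM and 313 against 199 CPM. *Ncl*, encoding nucleolin, was at 852 against 448 CPM and 921 against 430.1 CPM, and *Npm1*, another nucleolar protein, at 2075 against 1468 CPM and 2184 against 1367 CPM. *Nop16*, a nucleolar protein of ribosome assembly, was the 1 gene of the list past 2-fold (1.35 and 1.18). The mitochondrial chaperone *Hspd1* had 0.99 and 1.08 and the translation factor *Eif5a* 0.85 and 1.02.

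Metabolic genes followed in the same direction, with 13 of 17 compared higher in both libraries, 2 lower and medians of 0.43 and 0.59. In 3 of the 17 (*Shmt1*, *Mthfd2* and *Psat1*) the other cells were below 30 CPM in a library. These entered only because members were high, and the count and medians are in part set by the filter. The amino acid transporter *Slc7a5* was at 71.3 against 45.2 CPM and 76.0 against 30.5 CPM. Glycolysis genes higher in both libraries included *Tpi1* (0.67 and 0.87), *Ldha* (0.59 and 0.81) and *Gapdh* (0.43 and 0.60), while *Eno1* had 0.07 and -0.14. *Fabp5*, a fatty acid binding protein, had 36.2 against 9.26 CPM and 30.7 against 6.54 CPM, and *Shmt1* of one-carbon metabolism had log2 ratios of 1.67 and 2.11. Both fell below the filter of 30 CPM without cycling cells, without each gene's top cell and with cells weighted equally, where *Fabp5* had at least 1.598 and *Shmt1* at least 1.18 in each library, and *Fabp5* also without shared barcodes. *Txnip*, an inhibitor of glucose uptake, was lower (-0.77 and -0.64).

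**Figure D3:**
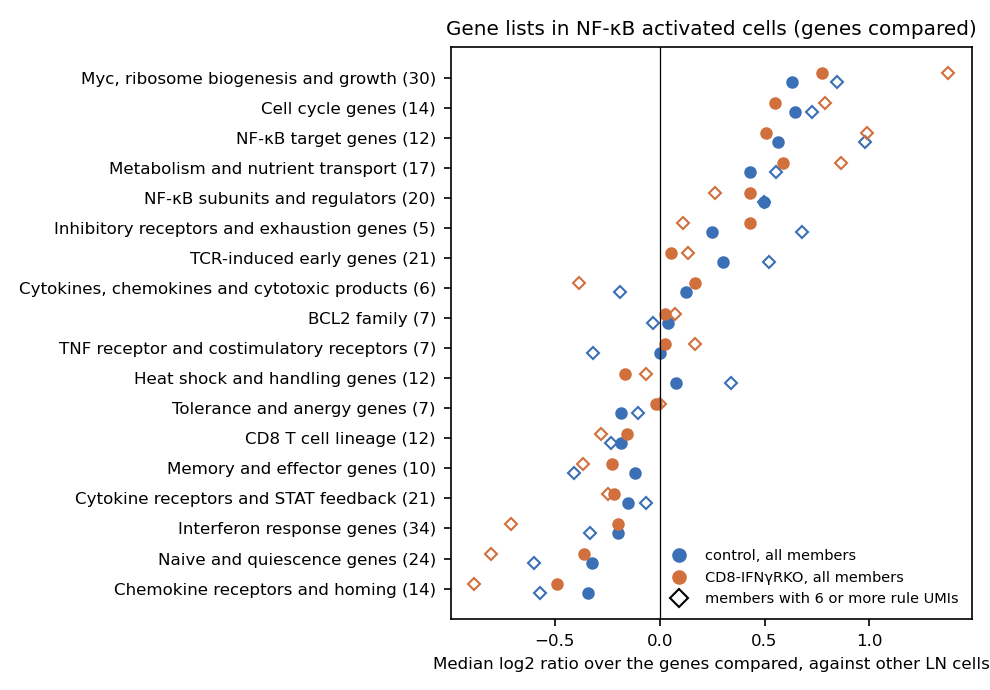
Median log2 ratio of members over other LN cells of each gene list (x axis, number of genes compared in brackets) in the control and CD8-IFNγRKO libraries. Filled circles are all members and open diamonds members with at least 6 rule UMIs. Growth genes stand at 0.63 and 0.77 for all members and chemokine receptors and homing genes at -0.34 and -0.49.

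Cell cycle genes were mostly higher, several of them through a small number of cells. In 4 of 14 compared (*Top2a*, *Mcm2*, *Mcm5* and *Rrm1*) the other cells were below 30 CPM in a library, so that they entered only because members were high. Of the 14, 12 were higher in both libraries, with medians of 0.64 and 0.55 that the filter set in part. These became 0.22 and 0.20 without cells that held a UMI of any of 6 cycling genes (named below), 0.38 and 0.29 without each gene's top cell, and 0.51 and 0.26 against other cells of the members' depth. Without cells that held markers of other cell types, the control median was -0.05. *Mcm3*, a subunit of the replication helicase, was at 108 against 41.7 CPM and 87.7 against 38.6 CPM and was found in 34 and 20 members, and at equal depth its log2 ratios of 1.35 and 1.16 became 1.02 and 0.62. *Hist1h1b*, *Hist1h2ae*, *Pclaf* and *Top2a*, which belong to DNA replication and mitosis, were past 2-fold too, but each had UMIs in fewer than 10 members of a library and more than 1 in 3 of its UMIs in a single cell. *Hist1h2ap* had 260 of 366 CD8-IFNγRKO UMIs and 165 of 392 control UMIs in a single cell. The 9 CD8-IFNγRKO members with a barcode also found in another library held all 21 *Hist1h1b* UMIs, all 37 *Pclaf* UMIs, 43 of 47 *Hist1h2ae* UMIs, 47 of 50 *Top2a* UMIs, 34 of 60 *Mcm3* UMIs and 312 of the 366 *Hist1h2ap* UMIs. Of the 9, 2 were deeper in the other library. Those with *Hist1h1b* UMIs had totals of 14866, 15220 and 37758 UMIs here, and 759, 825 and 615 in the control LN library. Without shared barcodes, *Hist1h1b*, *Hist1h2ae*, *Hist1h2ap*, *Pclaf*, *Top2a* (-0.09) and *Rnaseh2b* (-0.15) were lower in CD8-IFNγRKO members than in other cells. Other proliferation genes among the 20 highest were *Cdca7* (1.85 and 1.66) and the nuclear import gene *Kpna2* (1.55 and 2.97), and *Nefh*, a neurofilament gene, had 1.67 and 1.33. Of the 58 *Kpna2* UMIs of CD8-IFNγRKO members, 42 lay in the same 9 cells. Its ratios became 1.49 and 1.51 without shared barcodes and 1.40 and 1.22 without cycling cells, below the filter on levels in both settings. Without its top cell *Nefh* had 1.27 and 0.90.

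At an equal depth of 1600 UMIs, 12 of 144 control members (8.33%, 4.38 to 14.1) had a UMI of at least 1 of 6 cycling genes (*Mki67*, *Top2a*, *Hist1h1b*, *Pclaf*, *Ccna2* and *Cdk1*), against 1.70% of the other cells. Among CD8-IFNγRKO members 3 of 109 had one (2.75%, 0.571 to 7.83), against 1.24%. Without thinning the shares were 11.8% against 3.76% and 7.34% against 2.90%. Most members thus held no UMI of these genes at either depth.

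Genes of naive and quiescent T cells formed the largest group on the lower side. Of 26 listed, 24 could be compared, 21 were lower in members of both libraries and 1 higher (*Dapl1*, 0.11 and 0.01), with medians of -0.32 and -0.36. *Klf2*, a transcription factor that maintains quiescence and recirculation, was at 1309.6 CPM in control members against 2123 CPM in other cells, and at 1339 against 2322 CPM in the CD8-IFNγRKO library. *Klf3*, a related repressor, was at 62.3 against 140.1 CPM and 78.9 against 167 CPM, and *Foxo1* at 132 against 209.7 CPM and 124 against 212 CPM. *Tcf7*, which maintains naive and stem-like T cells, differed little (-0.19 and -0.19), and *Lef1* had -0.39 and -0.61.

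Of 14 homing genes compared, 12 were lower in both libraries. *S1pr1*, the receptor by which T cells leave the LN, was at 122 against 207 CPM and 107 against 232 CPM. *Ccr7*, the chemokine receptor for entry into the LN, was at 493 against 586 CPM and 531 against 642 CPM. Both genes were lower in members of both libraries, with log2 ratios of -0.76 and -1.11, and -0.25 and -0.28.

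Besides *Klf3*, the genes at least 2-fold lower were *Slfn1*, a quiescence gene, at 55.5 against 123 CPM and 49.7 against 139 CPM, and *St8sia4*, a sialyltransferase, at 12.5 against 33.9 CPM and 17.5 against 37.1 CPM, the last from 11 and 12 UMIs. None of the 3 was past 2-fold in both libraries without cells that held markers of other cell types, where *Klf3* had -1.27 and -0.84, *Slfn1* -0.92 and -1.84, and *St8sia4* -1.07 and -0.82. Against other cells of the members' depth *Klf3* had -1.08 and -0.99, and the other 2 were past 2-fold in both. The 10 lowest genes further included *Klhdc1* (-1.32 and -0.99), the phosphodiesterase *Pde4d* (-0.90 and -1.06), the cell cycle inhibitor *Cdkn2d* (-0.88 and -0.92), *Mctp2* (-0.86 and -0.89), the metalloprotease *Adam19* (-0.86 and -0.91), *Tdrp* (-0.95 and -0.85) and *Tsc22d3*. The last, encoding the glucocorticoid-induced protein GILZ, was at 319 against 578 CPM and 363 against 682 CPM.

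Interferon response genes were mostly lower in members. Of 34 compared, 20 were lower and 1 higher (*Gbp4*, 0.35 and 0.27) in both libraries, with a median of -0.20 in each and none past 2-fold. *Irf1*, a transcription factor of the response, had log2 ratios of 0.07 and -0.21. *Irf7* was lower (-0.67 and -0.81). CD8 lineage genes were also mostly lower, 10 of 12, with medians of -0.19 and -0.15, among them *Cd8b1* (-0.41 and -0.36) and *Thy1* (-0.51 and -0.42). A UMI of *Cd8b1* was asked of members and of the other LN cells alike. Against other cells of the members' depth the medians of this list were -0.10 and -0.06. Cytokine receptors and STAT feedback genes had 13 of 21 lower and 4 higher, and memory and effector genes 6 of 10 lower and 2 higher. The rule left cells with 3 or more UMIs of *Ccl5* out of the members but not out of the other cells, so this last count is in part set by it. For inhibitory receptors and exhaustion genes, 3 of 5 compared were higher and 1 lower, for tolerance and anergy genes 2 of 7 higher and 4 lower, and for the BCL2 family 4 of 7 higher and 3 lower. Among the genes of these lists, *Ifngr2*, *Cd160* and *Bcl2a1b* passed the filter only because members were high.

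Members varied among themselves by how far they exceeded the minimum. The 39 control and 29 CD8-IFNγRKO members with at least 6 rule UMIs had growth gene medians of 0.85 and 1.38 and naive gene medians of -0.60 and -0.81 over the other LN cells, both farther from 0 than those of all members. NF-κB targets stood at 0.98 and 0.99. Not every list moved outwards, since NF-κB subunits and regulators stood at 0.50 and 0.26, against 0.50 and 0.43 in all members, and inhibitory receptors and exhaustion genes at 0.68 and 0.11, against 0.25 and 0.43. *Bcl2a1b* reached 228 and 156 CPM in these cells, and *Klf2* was at 1022 and 820.4 CPM. *Nr4a1* reached 519 CPM in the control library and 228 CPM in the CD8-IFNγRKO library. Of the 40 genes past 2-fold, 29 were higher at 6 or more rule UMIs than at 4 to 5 in both libraries, and 7 were lower in both, 5 of them the cycling genes *Hist1h1b*, *Hist1h2ae*, *Hist1h2ap*, *Pclaf* and *Top2a* and the others *Hivep1* and *Id3*. Of all 4261 genes compared, 31.0% were higher and 28.4% lower in both libraries between the same cells, and the 40 had been chosen on these cells. Members with 6 or more rule UMIs were deeper (medians of 5378 and 5356 UMIs) than those with 4 to 5 (4794 and 4996), and the part of depth in these steps was not tested.

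**Figure D4:**
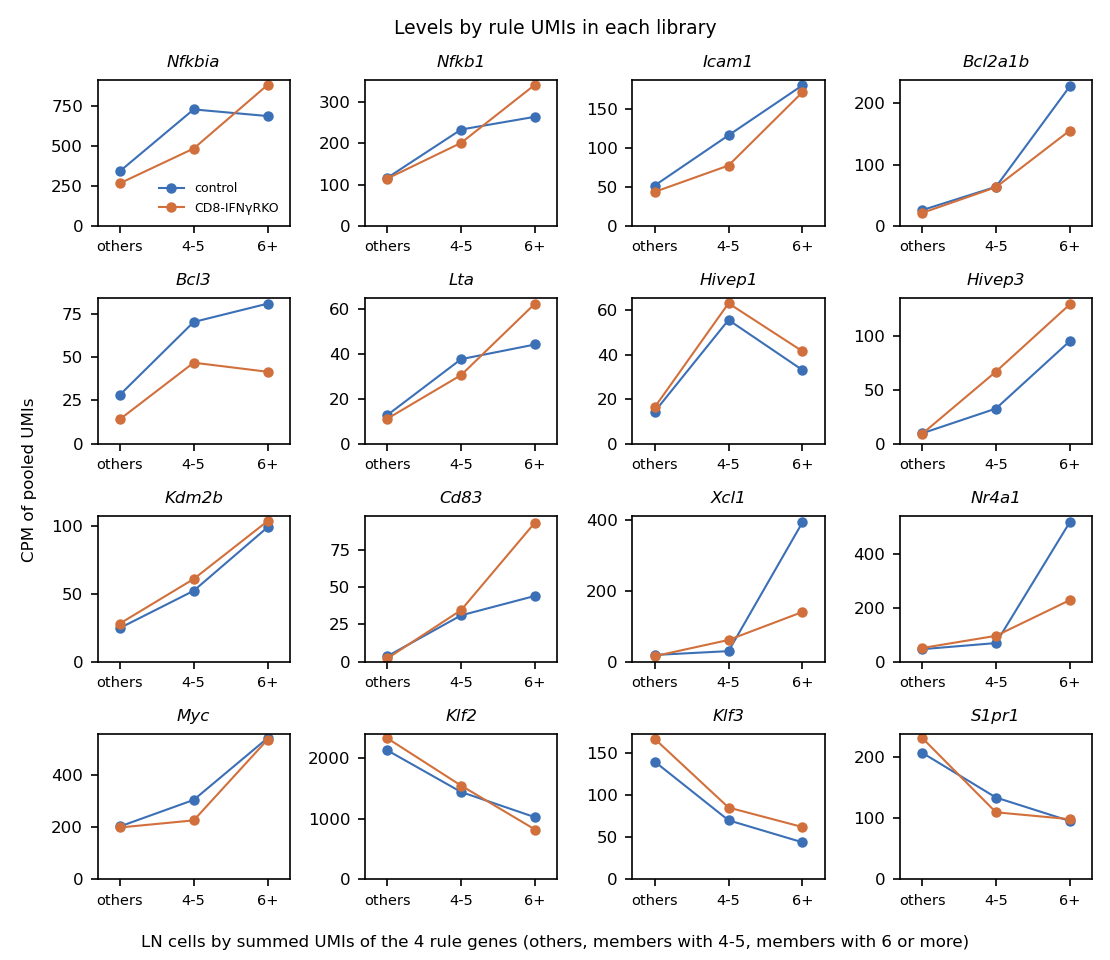
CPM of pooled UMIs (y axis, own scale per gene) of 16 genes in other LN cells, members with 4 to 5 rule UMIs and members with 6 or more, by genotype. *Klf2*, *Klf3* and *S1pr1* step down in both libraries, *Myc*, *Icam1*, *Bcl2a1b* and *Hivep3* step up, and *Hivep1* is highest at 4 to 5 UMIs.

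A second division was by *Tnfrsf9*, with at least 1 UMI in 43 control and 29 CD8-IFNγRKO members. These cells were deeper (medians of 6028 and 6269 UMIs) than the 101 and 80 members without it (4671 and 4814). Growth genes had medians of 0.99 and 1.18 in members with *Tnfrsf9* against 0.30 and 0.55 in those without, and cell cycle genes 1.42 and 0.83 against 0.14 and 0.38. *Xcl1* was at 356 and 212 CPM with *Tnfrsf9* and at 1.87 and 29.1 CPM without. NF-κB subunits and regulators went the other way, with medians of 0.23 and 0.18 in members with *Tnfrsf9* and 0.66 and 0.47 in those without. A cell without *Tnfrsf9* had to reach the sum through the other 3 rule genes. The list of subunits and regulators leaves the rule genes out, and whether this way of choosing cells bears on its medians was not tested. The naive genes were lower in both divisions, at -0.56 and -0.88 with *Tnfrsf9* and -0.28 and -0.27 without.

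Among the 137 control and 108 CD8-IFNγRKO members in which a *Trbv* segment (the V gene of the TCR β chain) was counted, use was broad. *Trbv13-3* was the most frequent in control members (11.7%, 6.82 to 18.3, against 6.27% of the other cells) but was found in 4.63% (1.52 to 10.5, against 6.49%) of CD8-IFNγRKO members, and *Trbv29* was the most frequent in CD8-IFNγRKO members (10.2%, 5.195 to 17.5, against 6.51%).

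The limit on *Ccl5* left out 397 and 342 LN cells, of which 23 and 12 reached the sum of 4. In the tumors, 145 of 7106 control cells (2.04%) and 953 of 8638 CD8-IFNγRKO cells (11.0%) met the whole rule. There the limit on *Ccl5* left out 6656 and 6794 cells, of which 3802 and 4220 reached the sum of 4, so that these shares depend on *Ccl5* more than those of the LN. Those tumor libraries were deeper, with medians of 6273 and 8800 UMIs in cells outside the rule, so that a fixed sum of UMIs is not the same limit there. In tumor cells within the rule over tumor cells outside it, *Cd83* (2.11 and 0.58) and *Xcl1* (2.28 and 0.80) were higher in both libraries. *Bcl2a1b* had -0.24 and -0.06, *Icam1* -0.21 and -0.08 and *Nfkbia* 0.28 and 0.14. The tumor cells outside the rule included the 3802 and 4220 that reached the sum of 4. The ratios of these 5 genes therefore cannot be set against those of the LN members.

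The last comparison set CD8-IFNγRKO members against control members, 1 library against 1, with no test. Of 2929 genes with at least 50 CPM in either, 100 (3.41%) were at least 1.5-fold higher and 92 (3.14%) at least 1.5-fold lower in CD8-IFNγRKO members. Among the other LN cells, where 6514 and 6645 cells stood behind each value, the shares were 0.151% and 0.189% of the 2646 genes compared there. Over the 2929 genes, the interquartile range of the log2 ratios ran from -0.16 to 0.20 in members and from -0.03 to 0.09 in the other cells.

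*Gbp2*, an IFNγ-induced GTPase, was the lowest gene, with a log2 ratio of -1.40 (-2.20 to -0.71) in members and -0.75 in the other cells. *Tap1* of antigen processing had -0.56 in members and -0.33 in the others, and *Psmb10* of the immunoproteasome -0.50 and -0.27. *Ly6a*, encoding Sca-1, was lower in members by -0.96 (-1.86 to -0.17) and in the others by -1.90 (-2.09 to -1.82). *Ifi27l2a* went the other way, at 0.93 (0.74 to 1.12) in members and 0.33 in the others. Of 26 interferon genes compared between genotypes, 17 were lower in CD8-IFNγRKO members, 5 of them by at least 1.5-fold, while 3 were at least 1.5-fold higher, and the median was -0.13. In the other LN cells 18 of the 26 were lower, 3 by at least 1.5-fold and 0 higher by as much, with a median of -0.10. Of all 2929 genes, 45.9% were lower in CD8-IFNγRKO members and 36.5% in the other cells.

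**Figure D5:**
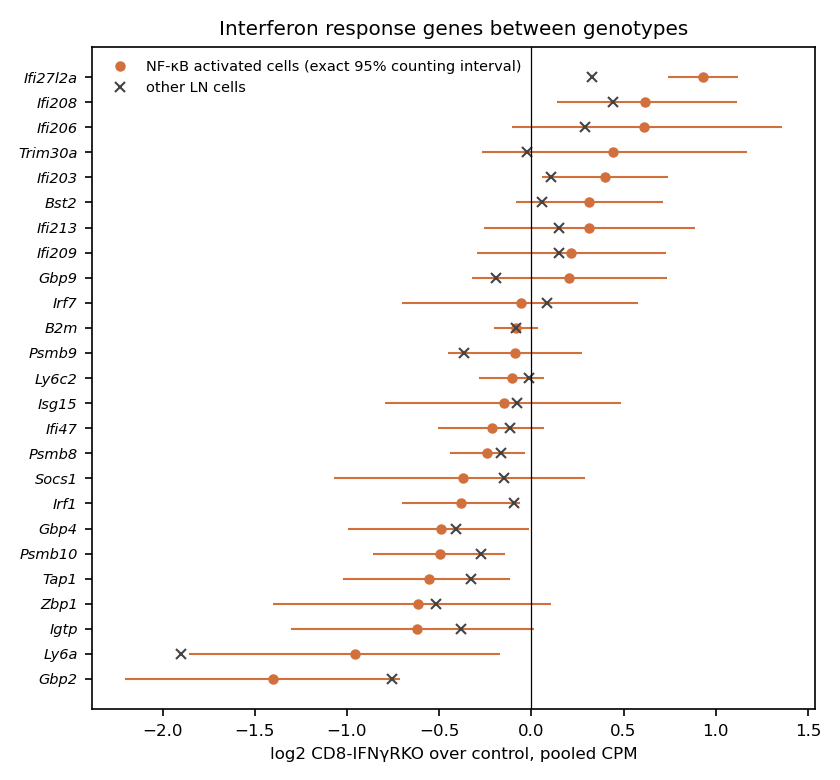
Log2 ratio of CD8-IFNγRKO over control (x axis) of interferon response genes in NF-κB activated cells (circles, bars are exact 95% counting intervals) and in the other LN cells (crosses). *Gbp2* and *Ly6a* are lowest in members, *Ifi27l2a* is highest, and the crosses lie on the same side of 0 for *Gbp2*, *Ly6a* and *Ifi27l2a*.

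Of 18 NF-κB subunits and regulators compared between genotypes, 9 were lower in CD8-IFNγRKO members, 2 of them by at least 1.5-fold, with a median of -0.00 in members and -0.02 in the other cells. *Nfkbia* had -0.26 in members and -0.36 in the other cells, and *Bcl3* -0.69 and -0.95. *Nr4a1* was lower in CD8-IFNγRKO members by -0.63 (-1.02 to -0.27) while the other cells had 0.13, and *Hivep3* was higher by 0.69 while the others had -0.07. The difference of these ratios was not tested, since each rests on 1 library per genotype.

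After *Gbp2*, the lowest ratios in members were those of the histone gene *Hist1h1d* (-1.37, with -0.20 in the other cells), the RNA helicase *Ddx19a* (-1.33 and 0.07), *Hscb* of iron-sulfur cluster assembly (-1.16 and -0.06) and *Hist1h1b* (-1.14 and -0.64). *Ddx19a* and *Hscb* were found in 36 and 44 control members and 14 and 15 CD8-IFNγRKO members, and *Hist1h1b* in 4 and 3. The highest ratios were those of *Ube2c* (6.05, 4.44 to 12.3, from 1 control UMI), *Mki67* (2.67) and *Cenpa* (2.64), all of mitotic cells, and 95 of 96 *Ube2c* UMIs, 57 of 58 *Mki67* UMIs and 48 of 52 *Cenpa* UMIs lay in the 9 CD8-IFNγRKO members with a barcode found in another library. *Cd74*, of antigen presentation by B cells and dendritic cells, was at 1.97, with 63 of 81 UMIs in a single cell. *Gm21887* had 1.73 in members and 1.80 in the other LN cells.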

How the data were processed

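Single-cell RNA sequencing of 2 LN libraries, and of 2 tumor libraries where named, was used. The authors mapped reads with Cell Ranger 6.0.0 to mm10 and deposited raw counts of UMIs for 32285 genes in barcodes called cells, without normalization. The deposited TCR contigs of the tumor libraries were not used here, and 0 columns of unknown samples were met. Members and gene lists were chosen with earlier results of these data known, and several lists and the rule were written after such results had been seen.

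UMIs were summed over cells of a class and divided by the total of all genes (CPM). Intervals were Poisson for CPM, Clopper-Pearson for shares and conditional binomial for ratios, and cover counting error only. TCR and immunoglobulin segments, mitochondrial, ribosomal protein and rule genes were left out of the genes compared. Precision follows the UMIs behind a value: *Nfkbia* in control members had an interval of 662 to 775 CPM and *Cd83* one of 23.8 to 49.8. Genes named were the 20 highest and 10 lowest by the smaller of both libraries' log2 ratios, the 5 highest and 5 lowest between genotypes (at least 50 CPM in either and 40 UMIs over both), *Ifngr1*, and up to 6 of each list, with most UMIs or a defining role. Genes outside that rule were chosen after their values were seen, among them *Id3*, the remaining genes with a promoter match, those that mark single cells and several further members of lists. Some genes are not reported here.

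Scrublet called 0 barcodes of the control and 1 of the CD8-IFNγRKO LN library, and no cell was removed as a doublet. Whether doublets were few or were missed by these calls was not tested. Of members, 9.03% and 6.42% were among the 8% highest scores of all barcodes, against 12.7% and 11.4% of the other LN cells. Free RNA was not measured. Python 3.11.15 with numpy 2.4.6, scipy 1.17.1, pandas 2.3.3, scanpy 1.11.5, anndata 0.12.19 and matplotlib 3.10.9 was used. Intervals of ratios in the control library were tried on simulated Poisson counts. In those counts UMIs do not gather in single cells, as they do for some genes here, so the coverage in the real data was not tested. Alternatives changed the minimum sum, the *Ccl5* limit, the mitochondrial limit, the rule genes, the filter on low values, depth and doublet scores. Leaving out cycling cells, cells with shared barcodes, the top cell of each gene or cells with a dominant gene, and weighting cells equally, were added after seeing the data.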

Additional observations from a re-analysis of the deposited data

Results flagged for a closer look

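*Tagap*, a gene expressed in T cells, had opposite directions in the 2 genotypes, with intervals that left out 0 in each. It was at 346 CPM in control members against 284 CPM in the other LN cells, a log2 ratio of 0.28 (0.12 to 0.45). In the CD8-IFNγRKO library it was at 306 CPM in members against 356 CPM, a log2 ratio of -0.22 (-0.42 to -0.02). The difference was not tested, each genotype being 1 library, and it was picked out among 4261 genes.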

How the results depend on the processing

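No paired analysis was possible because each genotype and tissue had 1 library. The number of genes at least 2-fold higher in both libraries (40) became 18 without each gene's top cell, 7 at a filter of 100 CPM, 154 with no CPM filter, 14 with a minimum of 3 rule UMIs and 141 with a minimum of 6, and these held 18, 7, 40, 13 and 32 of the 40. It became 31 with others weighted to the members' depth, 31 without cycling cells, 36 without shared barcodes, 36 with cells weighted equally and 47 without cells holding other cell types' markers (part of the listed markers, 54 and 44 members left), and these held 31, 23, 28, 25 and 23 of the 40. In the last setting 3 more, *Cd83*, *Lta* and *Bhlhe40* (1.35 and 2.12), were past 2-fold but below the filter on levels. The number of lower genes (3) became 1 without cycling cells or with 10 CPM added to both sides, 11 without each top cell, 186 with no CPM filter, 31 without cells holding other cell types' markers, 5 without high Scrublet scores, 0 at a minimum of 3 and 71 at 6, and these held 1, 1, 3, 3, 0, 3, 0 and 3 of the 3 (2 with others weighted to the members' depth). Genes past 1.5-fold between genotypes (192) became 116 with 10 CPM added, 1620 with no filter, 34 at a filter of 100 CPM and 49 at a minimum of 3. Shares in control and CD8-IFNγRKO cells were 4.70% and 3.52% at a minimum of 3, 0.586% and 0.429% at 6, 2.93% and 2.04% thinned, 1.10% and 0.800% without *Nfkb2*, 1.40% and 1.07% without *Nfkbid*, 0.781% and 0.622% without *Relb*, and 1.82% and 1.27% without *Tnfrsf9*, control being higher in each. These settings cut the same cells of 1 library per genotype in other ways, and the difference between genotypes was not tested.

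Cycling genes and single-cell genes reversed. Without shared barcodes, the CD8-IFNγRKO library had log2 ratios of members over others of -1.77 (*Hist1h1b*), -0.89 (*Hist1h2ae*), -0.53 (*Hist1h2ap*), -1.21 (*Pclaf*), -0.09 (*Top2a*) and -0.15 (*Rnaseh2b*), and CD8-IFNγRKO over control members had -0.63 (*Cenpa*) and -2.31 (*Mki67*). *Rnaseh2b* also had -0.14 without cycling cells and -0.12 with cells weighted equally in the CD8-IFNγRKO library. Without cycling cells, *Hist1h2ae* had -0.50 and -0.79, *Hist1h2ap* -0.38 and -0.47, and *Cenpa* between genotypes -0.67. Without its top cell, *Hist1h2ae* had -0.12 and *Hist1h2ap* -0.15 in the CD8-IFNγRKO library. Without cells holding other cell types' markers, *Hist1h1b* had -2.53 and -0.85, *Hist1h2ae* -1.001 and -1.48, *Hist1h2ap* -0.92 and -0.69, *Pclaf* -2.47 and -0.38, *Mcm3* -0.22 and *Top2a* -0.08 in the control library, and *Cenpa* -0.35 between genotypes. At a minimum of 6, *Hist1h1b* had -1.25 and -2.72, *Hist1h2ae* -1.63 and -0.37, *Hist1h2ap* -0.64 and -0.53, *Pclaf* -3.38 and *Top2a* -0.21 in the control library, and *Cd74* -0.68 between genotypes. The cause was not tested. For genes, a move was set against the counting interval. List medians have no such interval, and their moves were judged by size alone. Of the remaining values for named genes and lists, 1352 moved by less than this and 201 by more, 194 with the same sign and 7 with the other. The 7 were medians of lists, namely cytokines, chemokines and cytotoxic products at a minimum of 6 (-0.19 and -0.39) and, in the CD8-IFNγRKO library, without cells holding other cell types' markers (-0.20), inhibitory receptors (-0.13 and -0.20) and, in the control library, cell cycle genes (-0.05) without the same cells, and the BCL2 family without top cells in the CD8-IFNγRKO library (-0.23). Depth limits genes with few UMIs in members.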
